A study of Gallus gallus with 3 samples.

Results

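The cells described here are those that the authors' deposited annotation names Undifferentiated LPM 7 (cluster 7 in what follows) in the youngest library of a chicken forelimb field series. They number 427 of the 1210 cells of that library, or 35.3% (32.6 to 38.1%, exact binomial interval), and 427 of the 3262 cells of the whole series. The members were taken from the annotation alone, with no threshold of expression. The series holds 1 single-cell RNA library for each of 3 stages, HH10, HH14 and HH18 (embryonic day 1.5 for HH10, 2.5 for HH14 and 3.5 for HH18), all from untreated wild-type Gallus gallus embryos. At each stage the tissue beside the somites where the wing arises was dissected out, and male and female embryos were pooled into the library. The same cluster name covers 64 cells at HH14 and 0 cells at HH18, and those were not analysed here. Cluster 7 was set beside 4 other classes of the HH10 library: 81 ectoderm cells, 28 endoderm cells, 73 blood vessel cells and 132 cells named Undifferentiated LPM 1 (cluster 1). The first 3 of these carry only a first-level class in the annotation, whereas the 2 lateral plate clusters carry a finer one.

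The lateral plate is the mesoderm lateral to the somites and the intermediate mesoderm. It splits into a somatic layer next to the ectoderm, from which the limb bud mesenchyme comes, and a splanchnic layer next to the endoderm, which contributes to the heart and the gut wall. HAND2, OSR1, FOXF1 and GATA factors are transcription factors found in this tissue, CDX4 is a caudal homeobox factor of the posterior body, and HOX genes are switched on in the order of their position in each cluster, so that the set expressed differs along the head-to-tail axis.

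Each class is 1 pool of cells from 1 library of pooled embryos, so no difference between classes has a replicate, no test was run and no p-value is given. The authors grouped the cells with the same expression values, and a difference between classes therefore describes their grouping. Levels are UMIs (unique molecular identifiers, 1 for each captured transcript) of a gene per 1000000 UMIs of the class (CPM). Intervals in brackets are 95% intervals that cover counting error only. A lower level can mean less RNA per cell or fewer cells with the gene, which sums of UMIs cannot tell apart.

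Cluster 7 held 3296607 UMIs, with a median of 6402 per cell (2012 to 34350) and 2168 genes per cell. Median depth was 6764 in ectoderm, 6126 in endoderm, 5562 in blood vessel and 8927.5 in cluster 1. Ribosomal protein genes took a median of 27.2% of UMIs in cluster 7 and 24.2% in cluster 1. The annotation placed 208 cells of cluster 7 in G1 (48.7%), 80 in S (18.7%) and 139 in G2/M (32.6%), against 32.6% in G1 and 44.7% in G2/M in cluster 1. At the first level the authors had called 373 of the 427 cells primitive mesoderm (87.4%), 42 lateral plate (9.84%), 9 somitic, 2 gut and 1 blood vessel. Of the 132 cells of cluster 1, 82 were primitive mesoderm and 40 were gut derivatives at that level (30.3%). Scrublet called 1 cell of cluster 7 a doublet. A single barcode was shared between the HH10 and HH14 libraries, and 0 of the shared barcodes lay in cluster 7.

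HAND2, OSR1 and CDX4, the genes that mark the cluster, were all detected, and HAND2 and OSR1, more than CDX4, set it apart from ectoderm, endoderm and blood vessel. HAND2 stood at 661.9 CPM in cluster 7, 10.4 in ectoderm, 23.3 in endoderm, 82.0 in blood vessel and 1047 in cluster 1. OSR1 stood at 186.6 CPM in cluster 7, 1.30 in ectoderm (1 UMI), 0 of 214347 UMIs in endoderm (3 UMIs would be 14 CPM), 11.7 in blood vessel and 123.8 in cluster 1. Of these 5 classes, the 2 lateral plate clusters had the highest levels of both genes, HAND2 more in cluster 1 and OSR1 more in cluster 7. Elsewhere in the library, the 301 cells named Primitive MES had 712.3 CPM of HAND2 and 209.2 of OSR1, and the 29 named Primitive streak 861.4 and 197.1, so neither gene set cluster 7 apart from those cells. CDX4 stood at 270.9 CPM in cluster 7, 195.4 in ectoderm, 279.9 in endoderm, 53.6 in blood vessel and 170.8 in cluster 1. Its interval in cluster 7 (253.4 to 289.3) lay inside that in endoderm (213.6 to 360.3), and the Primitive MES cells had 538.9 CPM, so CDX4 did not set cluster 7 apart from endoderm either. Summed over the 3 genes, the level was 1119 CPM (1084 to 1156) in cluster 7, 207.1 in ectoderm, 303.2 in endoderm, 147.3 in blood vessel and 1342 in cluster 1.

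**Figure D1:**
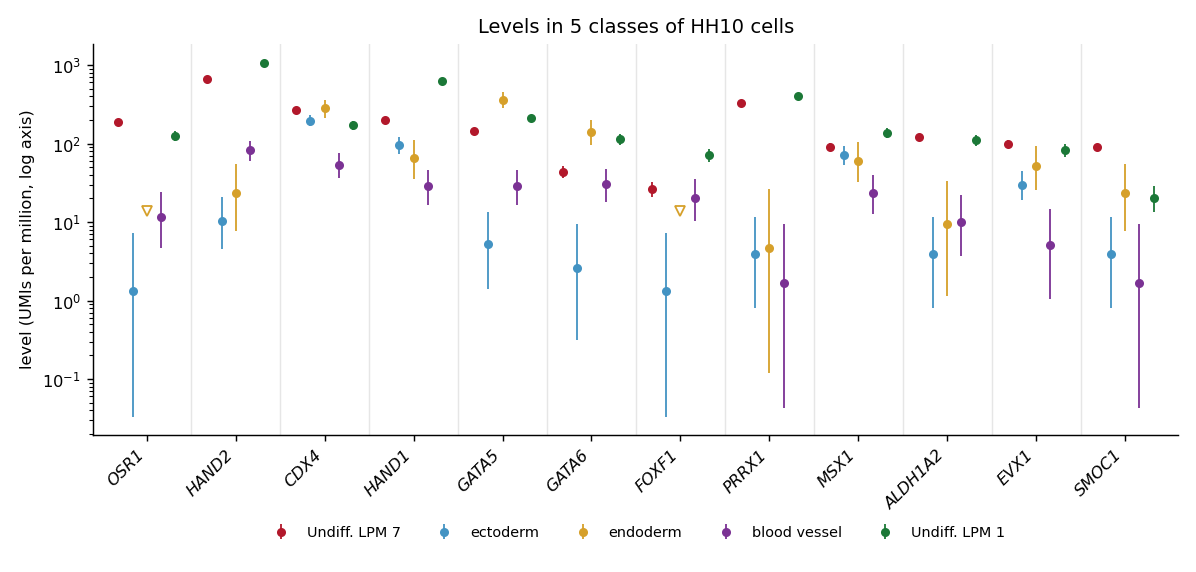
Level of 12 genes (CPM, log axis) in cluster 7, ectoderm, endoderm, blood vessel and cluster 1 cells at HH10. Points are sums over the cells of a class, bars are 95% Poisson intervals of counting, and an open triangle marks the limit of 3 counts where a class had 0 UMIs. HAND2, OSR1 and PRRX1 are high in both lateral plate clusters (661.9, 186.6 and 328.5 CPM in cluster 7), while CDX4 is as high in endoderm (279.9 CPM) as in cluster 7 (270.9 CPM).

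Of the 5 classes, most other lateral plate genes were also highest in the lateral plate clusters, whereas GATA5 and GATA6 were highest in endoderm (359.2 and 140 CPM). Outside those classes, the cells named Splanchnic LPM had 198.2 CPM of GATA6 (26 UMIs), above endoderm. All 8 lateral plate markers (OSR1, HAND1, HAND2, FOXF1, GATA4, GATA5, GATA6 and BMP4) were detected in cluster 7, with a summed level of 1346 CPM (1307 to 1386), against 217.6 in ectoderm, 615.8 in endoderm, 204.2 in blood vessel and 2258 in cluster 1. PRRX1, a homeobox factor of limb bud mesenchyme, stood at 328.5 CPM in cluster 7 and 403.8 in cluster 1, and at 1.67 to 4.67 CPM in the 3 other classes (1 to 3 UMIs each). TBX5, which in the chick is needed to start the wing bud, had 2 UMIs in cluster 7 (0.607 CPM) and 1 in cluster 1. PRRX1 was therefore present at HH10, and the wing initiation factor was at or below 3 counts in every class compared. PRRX1 also stood at 236.3 CPM in the cells named Splanchnic LPM, 168.4 in Primitive MES and 385.9 in Somatopleure. Its level thus does not place cluster 7 in the somatic layer.

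Markers of endoderm and endothelium were low in cluster 7, and so were those of ectoderm apart from KRT18. The 7 endoderm markers summed to 28.8 CPM against 2533 in endoderm, with FOXA1 and SOX17 at 0 UMIs. Most of that sum, 25.5 CPM (84 UMIs), was the lipoprotein APOA1, which stood at 1222 CPM in endoderm. The 8 endothelial markers summed to 49.4 CPM against 5027 in blood vessel, with TIE1 at 0. The 7 ectoderm markers present summed to 562.7 CPM against 2298 in ectoderm, of which 515.1 CPM was KRT18, a keratin of simple epithelia, and TFAP2A, a surface ectoderm factor, had 2 UMIs. KRT18 was also high in cluster 1, at 1284 CPM.

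As sequenced, 150 of the 427 cells had UMIs of all 3 marker genes (35.1%), 187 of 2 (43.8%), 82 of 1 (19.2%) and 8 of none (1.87%). To compare cells of unlike depth, each was thinned at random to 2900 UMIs, which kept 382 of 427 cells in cluster 7, 77 of 81 in ectoderm, 24 of 28 in endoderm, 60 of 73 in blood vessel and 128 of 132 in cluster 1. HAND2 was then seen in 288 of the 382 cells (75.4%, 70.8 to 79.6%), against 3.90% in ectoderm, 4.17% in endoderm, 23.3% in blood vessel and 93.0% in cluster 1. OSR1 was seen in 124 cells (32.5%, 27.8 to 37.4%), against 0 of 77 ectoderm cells (up to 3.90% allowed), 0 of 24 endoderm cells (up to 12.5%), 6.67% in blood vessel and 27.3% in cluster 1. CDX4 was seen in 181 cells (47.4%, 42.3 to 52.5%), between its shares in ectoderm (35.1%) and endoderm (54.2%). As sequenced, the shares were 89.2%, 55.3% and 67.7% for HAND2, OSR1 and CDX4.

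CDH5, TTR and EPCAM, genes of other cell types, were seen in few cells of cluster 7. At the same depth CDH5, a cadherin of endothelium, was seen in 1 of 382 cells (0.262%) against 78.3% of blood vessel cells, and TTR, a thyroid hormone carrier, in 1 of 382 against 33.3% of endoderm cells. TTR was named after its values were seen, and APOA1, another endoderm marker, had 84 UMIs in cluster 7 before thinning. EPCAM, an adhesion molecule of epithelia, reached 7.85% in cluster 7 and 84.4% in ectoderm. The shares of HAND2, OSR1 and CDX4 in cluster 7 lay above those of CDH5, TTR and EPCAM. KRT18, an ectoderm marker like EPCAM, stood at 515.1 CPM in cluster 7, and its share of cells is not given here. Blood vessel and endoderm hold only 73 and 28 cells, so CDH5 and TTR do not give the background of genes high in larger classes. HAND2 and CDX4 are such genes, and the share of CDX4 lay between those of ectoderm and endoderm.

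**Figure D2:**
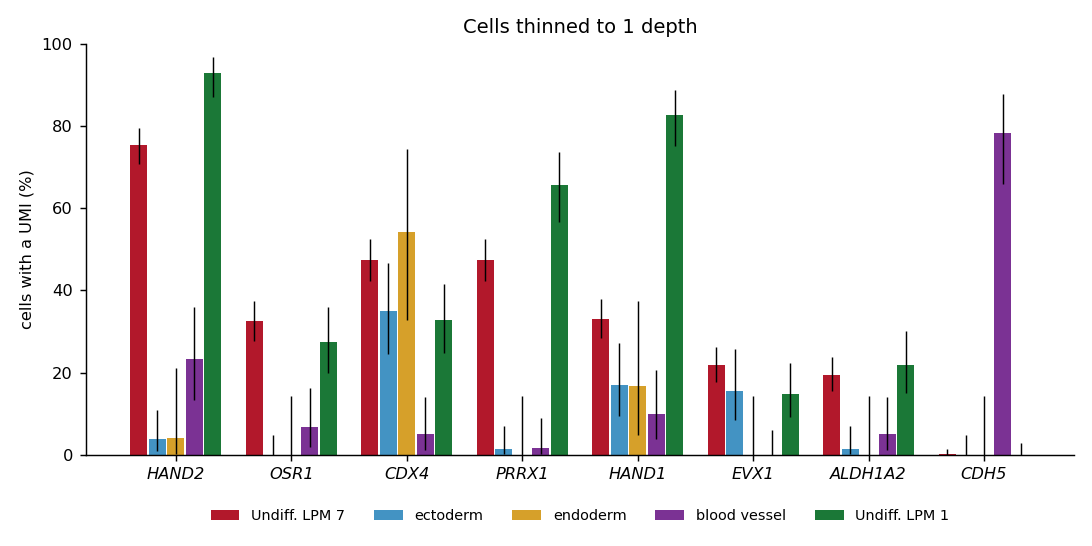
Percent of cells with at least 1 UMI of 8 genes after thinning every cell to 2900 UMIs, in the 5 classes; bars start at 0 and error bars are 95% Clopper-Pearson intervals. HAND2 is seen in 75.4% of cluster 7 cells and 93.0% of cluster 1 cells, HAND1 in 33.0% and 82.8%, and the endothelial gene CDH5 in 0.262% of cluster 7 cells.

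Detection of the 3 genes overlapped only in part. Of the 382 thinned cells, 30 had UMIs of none, 146 of 1 gene, 171 of 2 and 35 of all 3, so 206 (53.9%, 48.8 to 59.0%) had 2 or 3. HAND2 was seen in 77.3% of cells with CDX4 (70.6 to 83.2%) and 73.6% of cells without it (67.0 to 79.6%). OSR1 was seen in 27.6% of cells with CDX4 (21.3 to 34.7%) and 36.8% without (30.1 to 43.9%). For both the intervals overlap, so at this depth HAND2 and OSR1 were not seen to go with or against CDX4. EVX1, a posterior homeobox factor, was seen in 28.7% of cells with CDX4 (22.3 to 35.9%) and 15.4% without (10.7 to 21.2%), and these intervals do not overlap.

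The closest of the 4 classes was cluster 1, and most of what differed was lower in cluster 7. Of 7706 genes with 30 or more UMIs in the 2 sums, 117 (1.52%) were at least 2-fold higher in cluster 7 and 678 (8.8%) at least 2-fold lower. The median gene was itself 0.22 log2 units lower in cluster 7 (-0.22), so the split depends on the scaling. Setting that median to 0 moved it by 0.22 and gave 211 higher and 405 lower genes. Thinned cells gave 126 and 371, and cells annotated G1 alone gave 229 and 330 with the median moved by 0.15. With cluster 1 limited to its primitive mesoderm cells, a comparison added after the data were seen, 148 genes were higher and 723 lower.

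Genes higher in cluster 7 than in cluster 1 included regulators and a retinoid carrier. LBX2, a homeobox factor, stood at 30.9 CPM (102 UMIs) in cluster 7 and 2.77 CPM (4 UMIs) in cluster 1, an 11.2-fold difference (4.24 to 41.8). NANOS1, an RNA-binding repressor of translation, had the same 2 sums, though not the same counts cell by cell, and so the same fold. After thinning, LBX2 was seen in 5.76% of cluster 7 cells and in 0 of 128 cells of cluster 1 (up to 2.34% allowed), so few cells of the cluster had it. CRABP2, which carries retinoic acid in the cell, stood at 583 CPM against 184.6 CPM (3.16-fold, 2.78 to 3.60). SMOC1, a secreted modulator of BMP signals, was 4.45-fold higher (3.03 to 6.76), and NRARP, a feedback inhibitor of Notch, 5.23-fold higher (2.97 to 10.0). TUBB3, a tubulin best known from neurons, was 6.11-fold higher (3.40 to 12.1). PCSK5, RBM38, LIMD2 and CA9 completed the 10 of highest rank, at 3.08- to 4.72-fold. With cluster 1 limited to its primitive mesoderm cells, the log2 folds of these 10 genes ran from 1.59 (CRABP2) to 3.98 (LBX2).

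The 10 genes ranked highest in cluster 1 over cluster 7 were COL3A1, ALCAM, SLC1A3, KRT7, LUM, ACTA2, CXCL12, UNC5C, CALD1 and SST. KRT7, a keratin, stood at 416.2 CPM in cluster 7 and 1727 CPM in cluster 1 (4.15-fold lower in cluster 7, 3.88 to 4.44). COL3A1, a fibrillar collagen, was 10.8-fold lower in cluster 7 (6.63 to 18.5) and LUM, a matrix proteoglycan, 4.83-fold lower (3.76 to 6.24). ACTA2 and CALD1, an actin and an actin-binding protein of contractile cells, were 4.85-fold and 3.89-fold lower. CXCL12, a chemokine, stood at 96.5 against 405.2 CPM and SST, the precursor of somatostatin, at 57.9 against 216.4 CPM. ALCAM, SLC1A3 and UNC5C, an adhesion molecule, a glutamate transporter and a netrin receptor, were 8.07-, 7.57- and 4.62-fold lower. With cluster 1 limited to its primitive mesoderm cells, the log2 folds of these 10 genes ran from -2.80 (COL3A1) to -1.71 (ACTA2), with ALCAM at -2.34.

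**Figure D3:**
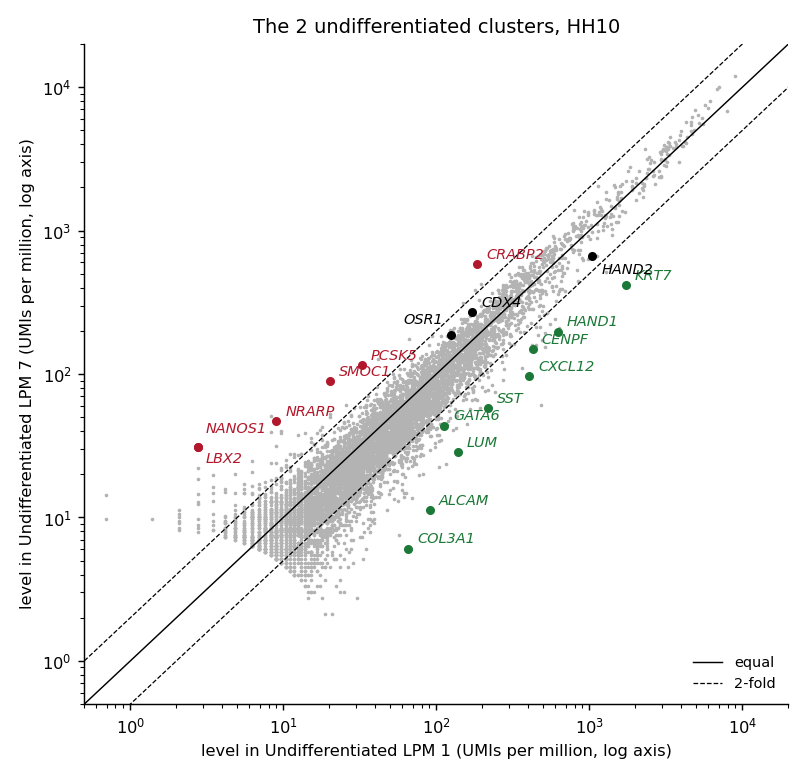
Level of each gene (CPM, log axes) in cluster 7, vertical, against cluster 1, horizontal, for measured genes with UMIs in both; lines mark equal levels and 2-fold differences. KRT7 (416.2 and 1727 CPM) and COL3A1 lie on the cluster 1 side, and CRABP2 (583 and 184.6 CPM), SMOC1 and LBX2 on the cluster 7 side.

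Read by gene list, cluster 7 had less of the lateral plate programme than cluster 1. At the first level 40 of the 132 cells of cluster 1 are gut derivatives, and the list counts were not repeated without them. Of 11 lateral plate genes measured, 7 were at least 2-fold lower and 0 higher. Their median was -1.12 on the log2 scale, against -0.22 for all genes. HAND1 was 3.14-fold lower in cluster 7 (197.5 against 620.3 CPM), FOXF1 2.70-fold (26.1 against 70.5) and GATA6 2.58-fold (43.7 against 112.7). Of 7 splanchnic layer genes 4 were lower (median -1.37), and 0 of 6 somatic layer genes passed 2-fold in either direction (median -0.18). Of all genes, 1.52% were higher and 8.8% lower in cluster 7. A count of 0 of 6 is near those shares and is not read as a difference between the layers. PRRX1 was 1.23-fold lower (1.11 to 1.36), and MSX1, a homeobox factor of the limb, 1.51-fold lower. The mesenchymal list had 0 higher and 9 lower of 18 (median -0.87), the extracellular matrix list 1 and 10 of 21 (median -0.97) and the ectoderm list 0 and 4 of 7 (median -1.32).

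In several lists a few genes of low level were higher in cluster 7, where 1.52% of all genes were. FGF18, MSGN1, PAX2, LHX1 and TCF15 reached the minimum of 30 UMIs only through cluster 7. That cluster held 3296607 UMIs, against 1446122 in cluster 1. Counts and medians of lists with such genes are in part set by that minimum, so no excess over 1.52% is read from them. Of 10 posterior body genes 2 were higher and 0 lower than in cluster 1 (median 0.20). They were FGF18, a growth factor, at 30 against 3 UMIs (4.39-fold, 1.36 to 22.5), and MSGN1, a presomitic mesoderm factor, at 43 against 5 UMIs (3.77-fold, 1.50 to 12.2). CDX4 was 1.59-fold higher (1.38 to 1.83) and EVX1 1.19-fold higher (0.965 to 1.49). Of 5 intermediate mesoderm genes 2 were higher (median 0.71): PAX2, a kidney-lineage factor, at 32 against 2 UMIs (7.02-fold, 1.79 to 60.5), and LHX1, another, at 54 against 5 UMIs. TCF15, a somite factor, had 73 against 4 UMIs (8.01-fold, 2.997 to 30.2) and was the 1 of 4 paraxial genes past 2-fold. The levels of these genes were low, 9.71 CPM for PAX2, 16.4 for LHX1, 13.04 for MSGN1, 22.1 for TCF15 and 1.52 for TBX6, another presomitic factor, and 9 of the 427 cells are somitic at the first level. Lists of other tissues showed the same: 2 of 3 endothelial genes measured were higher (median 1.62), 2 of 3 blood genes (median 1.62) and 2 of 2 neural genes (median 2.17), with 0 lower in each, so the higher genes were not particular to posterior or mesoderm lists.

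Early progenitor genes were mostly within 2-fold between the 2 clusters, as were all genes, of which 1.52% were higher and 8.8% lower in cluster 7. Of 12 early progenitor genes, MYCN, a growth-promoting factor, was the 1 past 2-fold (387.1 against 178.4 CPM, 2.17-fold, 1.90 to 2.49). In the G2/M list, 5 of 23 genes were lower in cluster 7 and 0 higher (median -0.76), among them CENPF (2.85-fold) and CENPE (2.79-fold), which act at kinetochores. In the S phase list only UNG, a DNA repair enzyme, passed 2-fold, upward. A smaller share of cluster 7 than of cluster 1 was annotated G2/M (32.6% and 44.7%), and the part of phase in these list counts was not tested. None of 15 glycolysis genes passed 2-fold against cluster 1. With 0 or 1 gene past 2-fold, the early progenitor, S phase and glycolysis lists are not read as differing from all genes.

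Against ectoderm, 553 of 7328 genes (7.55%) were at least 2-fold higher in cluster 7 and 641 (8.75%) lower. Thinned cells gave 437 and 308. HAND2 led the higher genes (63.5-fold, 32.2 to 147), with PRRX1 (84.1-fold, 28.7 to 408) and OSR1 (143-fold, 25.6 to 5665, against 1 UMI). MMP2, a matrix protease, had 277 UMIs in cluster 7 and 0 in ectoderm, 21.5-fold higher with the 0 set at 3 counts (interval from 17.4). CDH11, a mesenchymal cadherin, was 61.1-fold higher (16.8 to 506) and HAPLN1, a hyaluronan link protein, 25.01-fold higher. Lateral plate genes were higher in 7 and lower in 1 of 9 (median log2 fold 4.32, against 0.01 for all genes), and mesenchymal genes higher in 13 and lower in 3 of 17 (median 2.69). Lower in cluster 7 were CLDN1 and CLDN3, tight junction claudins (324-fold and 143-fold), TFAP2A (442-fold, 121 to 3677) and CXCL14, a chemokine (58.0-fold), with 13 of 15 ectoderm genes lower and 0 higher (median -4.58). FN1, a matrix glycoprotein, was 18.1-fold lower in cluster 7 (91.6 against 1653 CPM) and CRABP2 3.51-fold lower (583 against 2044 CPM).

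Against endoderm, 932 of 6921 genes (13.5%) were at least 2-fold higher in cluster 7 and 700 (10.1%) lower. Thinned cells gave 762 and 346, and the 28 endoderm cells held only 214347 UMIs. PRRX1 was 70.4-fold higher (12.6 to 2784, against 1 UMI), HAND2 28.4-fold (12.1 to 87.5) and CRABP2 12.5-fold (6.78 to 26.1). CLEC19A, a C-type lectin, had 1029 UMIs in cluster 7 and 0 in endoderm, at least 22.3-fold higher. Lateral plate genes split, 5 higher and 4 lower of 9 (median 0.90, against 0.02 for all genes). GATA5 (144.1 against 359.2 CPM) and GATA6 (43.7 against 140 CPM) were among the lower ones. Lower in cluster 7 were SHH, the hedgehog ligand of the gut (1 against 110 UMIs, 1692-fold, 297 to 67420), GUCA2B, a gut peptide (5268-fold, 1453 to 43580, with 2 UMIs in cluster 7), and APOA1, a lipoprotein (48.0-fold, 37.4 to 62.1). Of 11 endoderm genes 9 were lower and 2 higher (median -5.58).

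Against blood vessel cells, 532 of 7286 genes (7.3%) were at least 2-fold higher in cluster 7 and 803 (11%) lower. Thinned cells gave 429 and 406, and G1 cells 586 and 390, with the median gene moved by 0.12. PRRX1 was 196-fold higher (35.2 to 7758, against 1 UMI), OSR1 15.9-fold (7.68 to 39.8) and KRT7 15.5-fold (9.53 to 27.3). SP5, a target of WNT signals, was 20.6-fold higher (9.41 to 56.3) and EVX1 19.6-fold (6.64 to 95.4, against 3 UMIs). Posterior body genes were higher in 7 and lower in 0 of 10 (median 1.42, against -0.06 for all genes) and lateral plate genes likewise in 7 and 0 of 9 (median 2.80). Lower in cluster 7 were the endothelial genes CDH5 (677-fold, 230 to 3298), LMO2 (218-fold, 164 to 296), ERG (635-fold) and SOX18 (174-fold), with 13 of 13 endothelial genes lower (median -6.48). Notch genes were lower in 5 and higher in 1 of 9 (median -2.01). They included NOTCH1, a receptor (48.8 against 257.8 CPM), and LFNG, which modifies it (18.8 against 281.2 CPM).

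Few genes stood out against all 4 classes at once. Of 3607 genes with 100 or more UMIs in each of the 4 pairs of sums, 7 were at least 2-fold higher than in all 4 and 6 at least 2-fold lower. Ranked instead by the lowest interval bound over the 4 comparisons, which is not the same set as those past 2-fold, LBX2, SMOC1, PCSK5, PCP4, NR2F2, PLPP4 and PTN came first, although NR2F2 was 1.71-fold and PTN 1.52-fold above cluster 1. PCSK5, a protease that processes growth factors, stood at 115.6 CPM in cluster 7 and 9.33 to 50.2 in the 4 classes. NR2F2, a nuclear receptor of mesenchyme and veins, stood at 183.5 CPM against 18.7 to 107.2, and PTN, a heparin-binding growth factor, at 385.9 against 26.1 to 253.1. OSR1, HOXD4 and RSPO3, a WNT agonist, were also among the 15 of highest rank, each less than 2-fold above cluster 1. At the other end of that ranking, MYH9, a non-muscle myosin, stood at 171.7 CPM against 475.4 to 489.8, SPTBN1, a spectrin, at 109.8 against 229.3 to 452.5, and AGRN, a basement membrane proteoglycan, at 34.9 against 79.5 to 144. These 4 comparisons share the cluster 7 cells. LBX2, SMOC1, PCSK5, PCP4 and PLPP4 reached 100 UMIs in all 4 pairs of sums only through cluster 7. Their place at the top is thus in part set by that minimum, and so is the count of 7.

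HOX genes gave cluster 7 a profile that reached paralogue group 9. Every paralogue group from 1 to 9 was detected, and genes of groups 10 to 13 had 0 to 3 UMIs each in cluster 7. HOXB9 stood at 55.2 CPM in cluster 7, 24.8 in ectoderm, 401.2 in endoderm, 195.9 in blood vessel and 68.5 in cluster 1. HOXA7 stood at 418.6 CPM in cluster 7, 807.7 in ectoderm, 620.5 in endoderm, 723.2 in blood vessel and 273.1 in cluster 1. For these 2 genes cluster 7 lay below endoderm and blood vessel, by 7.27-fold (5.56 to 9.44) and 3.55-fold (2.79 to 4.5) for HOXB9 and 1.48-fold and 1.73-fold for HOXA7.

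Anterior paralogues showed another order. HOXB3 stood at 47.9 CPM in cluster 7, 14.3 in ectoderm, 4.67 in endoderm (1 UMI), 1.67 in blood vessel (1 UMI) and 67.1 in cluster 1. HOXB5, which lies in the paralogue group implicated in positioning the limb, stood at 120.4 CPM in cluster 7, 59.9 in ectoderm, 14 in endoderm (3 UMIs), 53.6 in blood vessel and 179.8 in cluster 1. HOXD4 stood at 73.4 CPM in cluster 7, 16.9, 18.7 and 20.1 in ectoderm, endoderm and blood vessel, and 45.6 in cluster 1. All 3 were higher in both lateral plate clusters than in the other classes. Of 9 genes of groups 1 to 4, 7 were at least 2-fold higher than in blood vessel (median 1.87), beside 7.3% of all genes. Against endoderm 4 were higher (median 0.74), beside 13.5%, and against ectoderm 4 (median 0.91), beside 7.55%. Against cluster 1, 0 were higher (median 0.02), beside 1.52%. In these comparisons 0 were 2-fold lower, beside 8.75 to 11% of all genes. The medians of all genes were -0.06, 0.02, 0.01 and -0.22 in the same order. In groups 5 to 8, HOXB6 was the 1 of 11 genes past 2-fold between the lateral plate clusters (41.3 against 86.4 CPM, 2.10-fold lower in cluster 7, 1.63 to 2.69). Of all genes, 8.8% were lower in cluster 7 than in cluster 1. The 0 of 9 and the 1 of 11 are near the shares of all genes and are not read as differences.

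**Figure D4:**
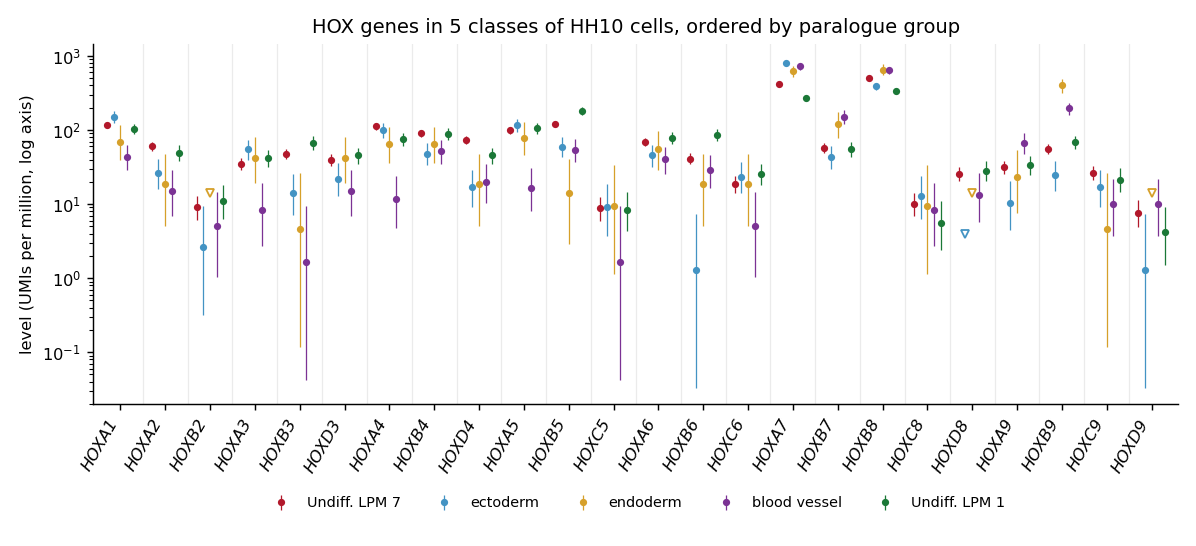
Level (CPM, log axis) of 24 HOX genes, ordered by paralogue group, in the 5 classes at HH10. HOXB9 is highest in endoderm (401.2 CPM) and blood vessel (195.9 CPM), and HOXB3 and HOXB5 are highest in the 2 lateral plate clusters.

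Single signalling genes differed in which classes they set apart. ALDH1A2, which makes retinoic acid, stood at 119.5 CPM in cluster 7 and 109.9 in cluster 1 (1.09-fold, 0.902 to 1.32), against 3.91 in ectoderm, 9.33 in endoderm and 10.0 in blood vessel. CYP26A1, which degrades retinoic acid, had 0 UMIs in both clusters (3 UMIs would be 0.910 CPM in cluster 7) and 12 UMIs in ectoderm (15.6 CPM). FGFR3, a receptor, stood at 109.8 CPM in cluster 7 and 10.4 to 21.8 in ectoderm, endoderm and blood vessel, and FGFR2 at 44.9 CPM against 158.4 in cluster 1 (3.53-fold lower, 2.86 to 4.37). FGF10, the growth factor that the limb mesenchyme sends to the ectoderm, had 52 UMIs in cluster 7 (15.8 CPM) and 6 in cluster 1 (3.80-fold, 1.63 to 10.8). Beside the 1.52% of all genes that were higher and the 8.8% that were lower than in cluster 1, of 13 FGF genes measured 2 were higher and 2 lower. No excess of higher genes is read from that count. BMP and TGF-beta genes were higher in 0 and lower in 7 of 24 (median -0.73), among them BAMBI, a decoy receptor (76.1 against 208.1 CPM), and SMAD6, an inhibitor (55.5 against 121 CPM). BMP4 itself, the ligand, was 1.35-fold higher in cluster 7 (1.06 to 1.75). WNT genes were higher in 0 and lower in 5 of 24 and Notch genes higher in 1, NRARP, and lower in 0 of 9.

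Cells within cluster 7 were not uniform. To describe this with other UMIs than those that order the cells, the UMIs of each cell were put at random into 2 sets. The first set ordered the cells along principal components of 1000 variable genes, and levels were then read from the other set in the 106 cells at either end. The first 2 components held 1.48% and 1.06% of the variance, so both orders are shallow. Genes still share cells and depth between the 2 sets, and the values are a description of these cells.

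Along the first component, KRT7 and other genes of cluster 1 were higher at one end and several posterior genes at the other, here called the posterior end. The name is a label only. PPIA, UBB and NPM3, none of them a posterior factor, had the highest weights at that end and were 1.40-, 1.71- and 1.62-fold higher there. Of 3323 genes measured, 66 (1.99%) were at least 2-fold higher at the posterior end and 369 (11.1%) at the other, the KRT7 end. KRT7 stood at 705.6 CPM at the KRT7 end and 91.7 at the posterior end (7.70-fold, 5.19 to 11.9), and PRRX1 at 391.1 and 115.5 CPM (3.39-fold, 2.34 to 5.04). CXCL12 had 60 UMIs at the KRT7 end and 0 at the other, 12.5-fold higher with the 0 set at 3 counts (interval from 9.87). SST had 68 and 0, 14.2-fold higher on the same terms (interval from 11.2). With the 2 sets of UMIs exchanged, the log2 difference, posterior over KRT7 end, was -1.81 for CXCL12 and -4.53 for SST. Of the 10 genes ranked highest in cluster 1 over cluster 7, KRT7, CXCL12, SST and CALD1 (45 and 7 UMIs) reached 30 UMIs here, and all 4 were at least 2-fold higher at the KRT7 end. All 4 reached that minimum only through the KRT7 end, which held 470521 UMIs against 294444. Their shared direction is thus in part set by the minimum and is not read as a link with cluster 1. The other 6 had 5 to 22 UMIs at that end and 0 to 3 at the posterior end, too few to measure. Of the 10 ranked highest in cluster 7, 8 reached 30 UMIs, and SMOC1, NRARP, PCSK5, LIMD2 and CA9 were at least 2-fold higher at the posterior end. CRABP2 was 1.31-fold higher there (1.09 to 1.58), and the intervals of TUBB3 (0.935 to 3.82) and RBM38 (0.984 to 4.12) include 1. NANOS1 (3 and 8 UMIs) and LBX2 (8 and 10 UMIs) were too low to measure. KRT7, PRRX1, NRARP and PCSK5 were among the genes of highest weight on this component. Their place at the ends is therefore in part set by how the order was built.

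Several posterior genes, though not all HOX genes, were higher at the other end. HOXB5 was 3.61-fold higher at the KRT7 end (1.99 to 7.09), and the intervals of HOXB6 and HOXB7 include 1. HOXA7 stood at 893.2 CPM there and 225.3 CPM at the KRT7 end (3.97-fold, 3.15 to 5.02), HOXB8 at 845.7 and 269.9 (3.13-fold, 2.52 to 3.91), CDX4 at 434.7 and 163.6 (2.66-fold, 1.99 to 3.57) and EVX1 at 214 and 76.5 (2.80-fold, 1.83 to 4.34). NRARP had 34 UMIs there and 7 at the KRT7 end (7.76-fold, 3.39 to 20.8), and MSGN1 had 12 and 1, too few to measure. HAND2 went the other way, at 390.6 CPM at the posterior end and 818.2 at the KRT7 end (2.10-fold, 1.70 to 2.60), as did HAND1 (2.11-fold) and GATA6 (36 UMIs at the KRT7 end and 3 at the other). ALDH1A2 had 98 UMIs at the KRT7 end and 2 at the posterior end (30.7-fold, 8.3 to 257). FGFR3 had 123 and 1 (77.0-fold, 13.6 to 3065), and MEIS2 and MEIS1 were 2.52-fold and 2.37-fold higher at the KRT7 end. Of 5 retinoic acid genes measured, 2 were at least 2-fold higher at the KRT7 end and 0 at the posterior end. Of all genes, 11.1% were higher at the KRT7 end. The median log2 fold of the list, posterior over KRT7 end, was -0.11, against -0.14 for all genes. The list as a whole is therefore not read as differing between the ends. ALDH1A2 reached the minimum of UMIs only through the KRT7 end, and CRABP2 was 1.31-fold higher at the posterior end. OSR1 did not separate the ends, at 146 and 163.6 CPM (1.12-fold, 0.762 to 1.67). CDX4 and HAND2 were among the genes that ordered the cells and OSR1 was not, so the contrast of OSR1 with them is in part set by how the order was built. HOXB8, NRARP and MSGN1 were among the genes of highest weight, so the same holds for their differences.

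Depth and phase moved with the first component. Median UMIs per cell were 7190.5 at the KRT7 end and 4304 at the posterior end, 34 and 70 of 106 cells were annotated G1, and 50 and 21 G2/M. Of 21 G2/M genes 12 were at least 2-fold higher at the KRT7 end, among them CENPF (4.12-fold) and TPX2, a spindle protein (2.38-fold). Ordering without S, G2/M, ribosomal protein and mitochondrial genes kept the order (correlation 0.952 over the 427 cells) and left KRT7 at a log2 difference of -3.54 and HOXA7 at 1.62. CENPF stayed at -1.96 and TPX2 at -1.21 in that order, so phase still moved with it, and its part in the other differences was not tested. With cells thinned to 1 depth before ordering, which left 382 cells, HOXA7 differed by 2.45 and KRT7 by -2.31.

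The second component set HOX genes of groups 6 to 9 against retinoic acid genes, as the first did for HOXA7, HOXB8 and ALDH1A2. HOXA7, HOXB8, HOXB9, EVX1, WNT5A and HAND2 were among the genes of highest weight on the HOX side. CRABP2, MEIS2, ALDH1A2, FGFR3, RDH10 and NR2F2 were among those on the opposite side. The differences of all these genes are therefore in part set by how the order was built. Of 3446 genes measured, 212 (6.15%) were at least 2-fold higher at the ALDH1A2 end and 51 (1.48%) at the HOX end. HOXA7 stood at 880.9 CPM at the HOX end and 108.9 at the other (8.09-fold, 6.07 to 10.9), HOXB8 at 864.5 and 180.9 (4.78-fold, 3.76 to 6.11), and EVX1 at 221.3 and 22.8 (9.69-fold, 5.22 to 19.4). HOXB9 had 27 UMIs at the HOX end and 4 at the other (15.7-fold, 5.49 to 61.9), and WNT5A, a ligand of the posterior body and limb, was 3.69-fold higher (2.39 to 5.77). Of 6 genes of groups 5 to 8 measured, 4 were higher at the HOX end (HOXA6, HOXA7, HOXB7 and HOXB8) and 0 lower, while HOXB5 stood at 90.1 CPM there and 168.7 at the other end. CDX4 was 2.57-fold higher at the HOX end (1.87 to 3.52) and HAND2 1.79-fold (1.48 to 2.15).

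At the opposite end ALDH1A2 stood at 272.3 CPM against 20.5 (13.3-fold, 5.58 to 41.5). CRABP2 stood at 939.9 against 315.5 CPM (2.98-fold, 2.34 to 3.83), and RDH10, which makes the precursor of retinoic acid, had 28 against 2 UMIs (6.003-fold, 1.51 to 52.0). Of 7 retinoic acid genes 4 were at least 2-fold higher at this end (median log2 fold 1.29, against 0.13 for all genes). Among those 4, ALDH1A2, CRABP2 and RDH10 were also genes of highest weight on the component. MEIS2 and MEIS1, HOX cofactors known for proximal limb identity, were 3.38-fold and 2.44-fold higher, FGFR3 7.29-fold, NR2F2 6.37-fold and OSR1 1.84-fold (1.24 to 2.82). MEOX1 (39 against 3 UMIs) and TCF15 (30 against 1 UMI), both somite factors, were higher at the same end. Both reached the minimum of 30 UMIs only through that end, which held 569223 UMIs against 244062 at the HOX end. They were not read again without the cells that are somitic at the first level.

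**Figure D5:**
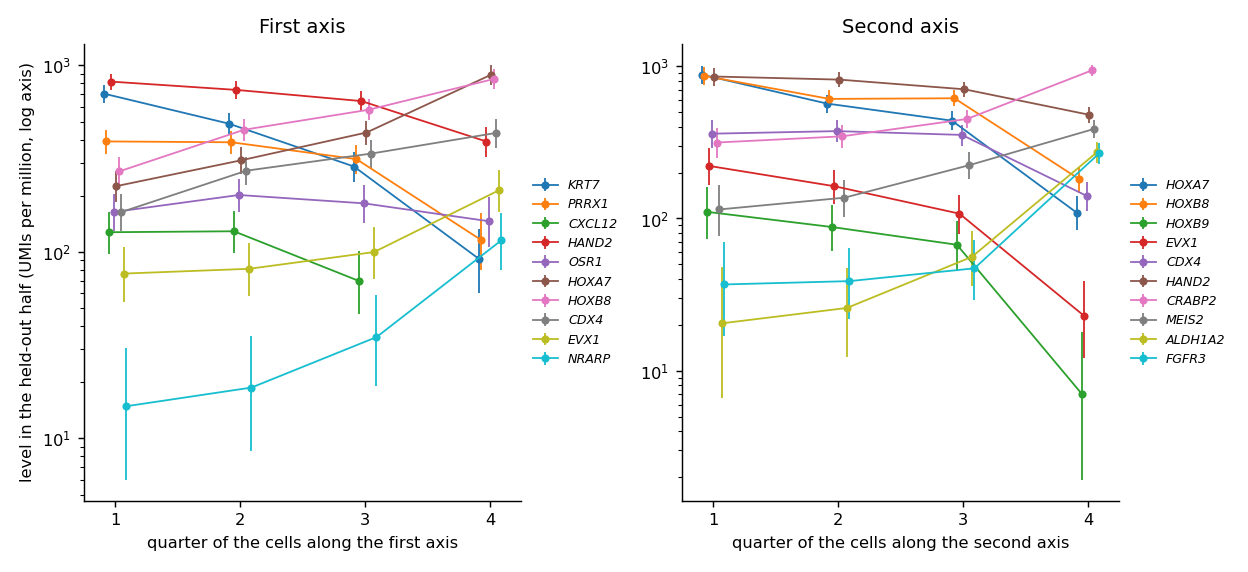
Level (CPM, log axis) read from UMIs that did not order the cells, in 4 groups of 106 to 108 cluster 7 cells along the first (left) and second (right) component; bars are 95% Poisson intervals. On the left KRT7 goes from 705.6 to 91.7 CPM and HOXA7 from 225.3 to 893.2 CPM; on the right HOXA7 goes from 880.9 to 108.9 CPM and ALDH1A2 from 20.5 to 272.3 CPM. CXCL12, with 0 UMIs in the last group of the first component, is not drawn there.

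Depth moved with the second component, and a W-linked gene did so in the main order but not in every alternative. Median UMIs per cell were 4344.5 at the HOX end and 9660.5 at the ALDH1A2 end. HINTW, a gene of the female-specific W chromosome, stood at 3200 CPM at the HOX end and 1268 at the other, in cells of pooled male and female embryos, and across classes at 2045 CPM in cluster 7, 1093 in ectoderm, 1763 in endoderm, 1684 in blood vessel and 1135 in cluster 1. HINTW was among the genes that ordered the cells. Its log2 difference was -1.34 in the main order and -0.19 with the 2 sets of UMIs exchanged, an order that correlated at 0.727. It was -0.47 without cell cycle, ribosomal protein and mitochondrial genes and 0.44 in thinned cells. In the other alternatives it ran from -1.48 to -1.15. In alternatives added after the data were seen, the order without W-linked genes correlated at 0.998 with the first. Among the 235 cells with a HINTW UMI alone, the log2 difference was -3.04 for HOXA7, -4.52 for EVX1 and 3.42 for ALDH1A2. Thinned cells gave a second component that correlated at 0.606 with the main one, with HOXA7 at -0.89 and ALDH1A2 at 2.59 and only 36 genes 2-fold higher at the ALDH1A2 end. Limited to the 415 cells of first-level primitive or lateral plate mesoderm, the component correlated at 0.738 with the main one and most differences were smaller. There HOXA7 stood at -2.13, EVX1 at -1.52, ALDH1A2 at 1.92, FGFR3 at 1.41, NR2F2 at 1.20 and CRABP2 at 0.29.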

How the data were processed

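The deposited matrices hold raw UMI counts, 1 matrix for each stage, and a deposited table annotates every cell. The kit was 10x Genomics 3' v3.1, per the labels' protocols, and reads were processed with Cell Ranger 4.0.0 against GRCg6a, per the submitters' processing notes. As deposited, the annotation also gives UMI counts and genes per cell, the percent of UMIs in mitochondrial and in ribosomal protein genes, phases and classes. How the authors filtered, clustered and called phases is not given in the sources used here. Summed counts equalled the annotated UMIs exactly in 87.3% of HH10 cells, with a largest difference of 9.

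Counts were summed by class and divided by all its UMIs. Folds carry exact conditional binomial intervals, levels exact Poisson intervals and shares Clopper-Pearson intervals, all at 95%. Genes with fewer than 30 UMIs in both sums together were left out as not measured. Where a gene reached this minimum through a single class or end, its direction is in part set by the minimum. The same holds for the minimum of 100 UMIs for genes named by rank. Counts and medians of lists that hold such genes carry the same limit in every comparison. A difference of 2-fold describes size. A fold against 0 is the value with the 0 set at 3 counts over the class, given with the lower end of its interval. Genes with a 0 sum entered list medians at that value. Doublets were called with Scrublet in scanpy 1.11.5 (expected rate 2%, 2 of 1210 cells called) and kept. The computation was tested on simulated data.

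The members, the 31 gene lists (565 genes, 489 present) and the tests were chosen with earlier results of these data known. Named genes were the 10 highest and 10 lowest by the interval bound nearest to 1 in each comparison, among those that have a symbol and at least 100 UMIs, without 13 mitochondrial, 72 ribosomal protein, 7 haemoglobin and 4 W-linked genes, the leading list members, the genes of highest weight on each component, a set of mesoderm genes and all HOX genes. FN1, BMP4, SMAD6, SP5, TTR, MEOX1, FGF10 and some other list members were named after their values were seen.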

Additional observations from a re-analysis of the deposited data

How the results depend on the processing

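No paired analysis was possible because each stage is 1 library and no comparison has replicates. A count of genes past 2-fold depended on the minimum of UMIs and on the use of the interval. With a minimum of 10 UMIs, higher and lower genes numbered 993 and 1201 against ectoderm, 1512 and 1341 against endoderm, 940 and 1381 against blood vessel and 289 and 1127 against cluster 1. With 100 UMIs they numbered 214 and 219, 319 and 214, 201 and 270, and 37 and 258. With the whole interval past 2-fold they numbered 136 and 274, 45 and 149, 108 and 320, and 18 and 145, in the same order. Thinned cells left 308, 346, 406 and 371 lower genes; fewer genes were then measured. G1 cells gave 450 lower genes against endoderm, 390 against blood vessel, and 229 higher and 330 lower against cluster 1, and median-of-ratios scaling gave 211 and 405 against cluster 1. Shares with a UMI at the 25th percentile of depth (4200 UMIs) and as sequenced were 46.2% and 55.3% for OSR1, 56.0% and 67.7% for CDX4, and 84.5% and 89.2% for HAND2, and cells with 2 or 3 of these genes made up 66.1% at 4200 UMIs. Along the first component, thinned cells gave 35 and 89 genes at the posterior and KRT7 ends and HINTW-positive cells 42 at the posterior end. Along the second, 500 variable genes gave 78 at the HOX end, and the ALDH1A2 end had 101 genes without cell cycle, ribosomal protein and mitochondrial genes, 36 in thinned cells and 87 in first-level primitive or lateral plate mesoderm. Directions that reversed were, in thinned cells, the list medians of intermediate mesoderm against ectoderm (-0.37), mesenchymal (-0.038) and FGF genes (-0.054) against endoderm, and HINTW along the second component (0.44), and in first-level mesoderm cells HAND1 along the second component (0.78). The cause of these reversals was not tested. Of the other single-gene and list values under an alternative, 893 kept their size and 124 moved without reversing. Depth limits the endoderm comparison most, with 28 cells.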
